A study of Mus musculus with 6 samples.

Results

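The Mage genes encode proteins that share the MAGE homology domain. The description covers 10 of them, all on the X chromosome, chosen by name: Magea4, Magea5, Magea10, Mageb4, Mageb16 and Mageb10-ps, listed as cancer-testis members, and Maged1, Maged2, Magee1 and Mageh1, listed as broadly expressed members. They are 10 of the 26567 genes with a value in the deposited files, and all 10 were among the 16989 genes with enough counts to be tested. The name Mageb10-ps stands for a gene that RefSeq lists as a pseudogene and the GENCODE release used for gene names lists as protein coding.

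RNA was sequenced from cap mesenchyme, the layer of nephron progenitors around the ureteric bud tips, sorted from kidneys of C57BL/6 mouse embryos on embryonic day 18.5. Both groups carried conditional Dnmt1 alleles and Six2-Cre, a recombinase active in cap mesenchyme. The heterozygous group (HET, Dnmt1 +/-) and the knockout group (KO, Dnmt1 -/-) each had 3 libraries. The control group is therefore itself a carrier of 1 deleted allele, and cells outside the Six2 lineage keep Dnmt1 in both groups. The labels do not say whether a library came from 1 embryo or a pool, so p-values measure the spread between these libraries.

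Type I MAGE genes (the A and B families here) are normally read in germ cells of the testis, are silent in most other tissues and are re-expressed in many tumours, which gave them the name cancer-testis antigens. Type II members (the D, E and H families) are read in many tissues. MAGE proteins bind RING-type ubiquitin ligases and can direct them to substrates. Dnmt1 copies DNA methylation to the new strand at replication, and promoter methylation is a known layer of silencing of type I MAGE genes in human cells.

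Gene levels are given as CPM, the kallisto estimated counts scaled to library size with TMM factors. Where genes are compared with each other they are given as TPM, which also accounts for transcript length. The libraries held 46741667 to 61585484 estimated counts, so 3 counts, the limit that a count of 0 allows, stood for 0.0510 to 0.0662 normalised CPM, counting error only. Dnmt1 was at 40.0, 52.4 and 51.7 CPM in the HET libraries and at 20.9, 18.6 and 14.9 CPM in the KO libraries (log2 change -1.41 ± 0.15, adjusted p = 0.000264 by edgeR's quasi-likelihood fit with Benjamini-Hochberg adjustment). Cap mesenchyme markers were detected in every group, with 9 of 9 genes above 0. They summed to 1822.9 to 1922.8 CPM in HET and 1280.3 to 1576.2 CPM in KO. By edgeR, 2 of the 9 were called lower and 0 higher, against 1.92% of all tested genes called lower. The 2 were Cited1, at 135.9 CPM in HET and 72.6 CPM in KO, and Wt1, at 417.3 and 250.1 CPM. Markers of endothelium, macrophages, renal stroma and ureteric bud were highest in KO replicate 1, with summed endothelial markers at 204.7 CPM against 25.6 to 30.9 CPM in HET, and renal stroma markers at 743.8 CPM against 207.2 to 259.1 CPM. In summed level the other KO libraries were also above every HET library for these 4 lists, except for ureteric bud in KO replicate 3. By edgeR, 1 of 9 endothelial, 0 of 7 macrophage, 0 of 8 stroma and 1 of 8 ureteric bud markers tested were called higher. The share of all tested genes called higher was 4.92%. Y-linked transcripts were high in HET replicates 1 and 3 and in KO replicate 2, so both groups held libraries from both sexes.

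The promoters of 4 members are printed because they differ widely in CpG sites, the dinucleotide that DNA methylation marks, and include members that rose, fell and were not called. Each is the 250 bases before a RefSeq transcription start on GRCm38.p6, 5′ to 3′ on the gene's own strand, in lower case with CpG sites in capitals. The windows are chrX:72386859-72387108 on the minus strand for Magea10, chrX:86256220-86256469 on the minus strand for Mageb4, chrX:94542026-94542275 on the minus strand for Maged1 and chrX:105120128-105120377 on the plus strand for Magee1.
Magea10: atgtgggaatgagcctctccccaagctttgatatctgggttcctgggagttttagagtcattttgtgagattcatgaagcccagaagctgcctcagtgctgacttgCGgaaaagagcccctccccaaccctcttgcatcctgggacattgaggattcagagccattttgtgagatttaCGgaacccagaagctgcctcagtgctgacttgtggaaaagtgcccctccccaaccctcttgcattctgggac
Mageb4: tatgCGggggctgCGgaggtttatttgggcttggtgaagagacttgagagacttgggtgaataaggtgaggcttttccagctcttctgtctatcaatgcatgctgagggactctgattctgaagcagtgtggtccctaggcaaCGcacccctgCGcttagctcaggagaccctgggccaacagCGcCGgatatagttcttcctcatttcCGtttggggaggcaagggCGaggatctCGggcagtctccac
Maged1: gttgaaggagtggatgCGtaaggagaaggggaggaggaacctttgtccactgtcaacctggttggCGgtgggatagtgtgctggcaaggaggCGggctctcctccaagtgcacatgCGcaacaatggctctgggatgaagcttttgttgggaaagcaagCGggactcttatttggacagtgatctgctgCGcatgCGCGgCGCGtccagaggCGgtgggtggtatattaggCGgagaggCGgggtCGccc
Magee1: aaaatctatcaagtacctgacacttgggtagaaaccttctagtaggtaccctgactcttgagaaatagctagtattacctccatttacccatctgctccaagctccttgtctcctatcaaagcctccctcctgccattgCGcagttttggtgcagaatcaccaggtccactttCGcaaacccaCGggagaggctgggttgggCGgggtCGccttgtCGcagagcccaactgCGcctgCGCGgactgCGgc
Magea10 held 2 CpG sites in this window, Mageb4 9, Magee1 10 and Maged1 14. The median over 32851 RefSeq promoters of this length was 6 sites, and over the 1223 on the X chromosome it was 5.

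Among the other members, the windows of Magea4 and Magea5 held 0 CpG sites, that of Mageb16 held 5 and that of Mageh1 held 11. Maged2 had 4 listed starts, whose windows held 7, 7, 16 and 16 sites. The promoter table had no entry for Mageb10-ps. The windows of Magea4 and Magea5 precede 1 of several annotated starts and lie inside the listed spans of the genes, as do some Maged2 windows. That of Mageb16 precedes the start of its minor transcript. The windows of members that rose thus ranged from 0 to 9 sites, and those of the broadly expressed ones from 7 to 16. The values of 0 come from the windows inside Magea4 and Magea5, which need not be the promoters in use. The GC box letters GGGCGG, searched on both strands, were found in the windows of Mageb16, Magee1 and Mageh1 and in 2 of the 4 Maged2 windows, against 32.7% of all promoters. The letters CCGGAA, the core of an ETS factor site with a CpG, were found in no member's window, against 12% of all promoters. No methylation was measured in these libraries.

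**Figure D1:**
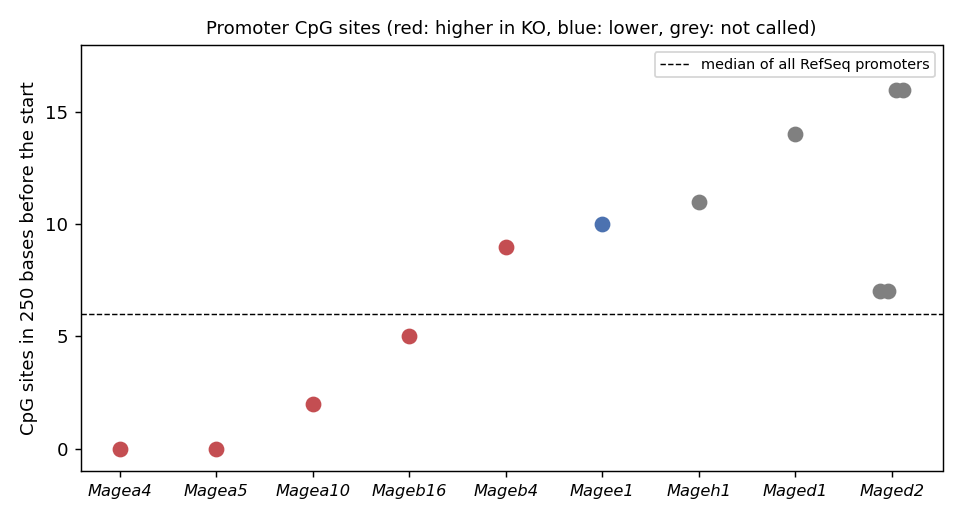
Number of CpG sites in the 250 bases before each RefSeq start (vertical axis), 1 point per listed start, for the 9 members in the promoter table. The dashed line is the median of 6 over all promoters. Magea4, Magea5, Magea10 and Mageb16 lie below it and Mageb4 lies above it with 9 sites. The windows of Magea4 and Magea5 lie inside the genes.

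All 6 cancer-testis members were called higher in the KO libraries by edgeR, and none of the 4 broadly expressed members was. Of these 4, 0 were higher also at an unadjusted p under 0.05 and by DESeq2. Across all tested genes, 4.92% were called higher and 1.92% lower (6.85% in either direction) at an edgeR adjusted p under 0.05, and among the 722 tested X-linked genes 14.0% were called higher. All 6 passed the filter on low counts only through the KO libraries, so they had to differ to be tested, and their count gives no support of its own. In bulk RNA, more cells reading a gene and more RNA per cell cannot be told apart. The 6 genes summed to 0.1785, 0.1601 and 0.1634 CPM in the HET libraries and to 28.64, 30.79 and 25.94 CPM in the KO libraries. Every KO value lay far above every HET value.

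Mageb4, a type I member on chrX:86250256-86256219 (GRCm38), had the highest CPM of the 6 in the KO libraries. It had 6.0, 0 and 0 estimated counts in the HET libraries and 724.6, 903.7 and 768.0 in the KO libraries, which is 0.117, 0 and 0 CPM against 15.4, 17.4 and 15.1 CPM. The groups did not overlap, as for 29.0% of all tested genes in either direction, and the 3 KO libraries were close to each other. The means were 0.0389 ± 0.0674 and 16.0 ± 1.28 CPM (SD, n = 3), a ratio of 410.5 that rests on 6 counts in HET replicate 1 (fitted log2 change 8.60 ± 0.61, edgeR adjusted p = 9.34e-05). Without HET replicate 1 every remaining HET count was 0 and the fitted log2 change became 12.66.

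Mageb10-ps, on chrX:86299766-86305093 in the same cluster, had no counts in any HET library. Its KO libraries held 418.4, 439.3 and 335.0 estimated counts, or 8.88, 8.47 and 6.58 CPM (7.98 ± 1.22, SD, n = 3). Against the limit of 3 counts per HET library it was at least 136.3-fold higher (edgeR adjusted p = 3.14e-06). Its rank of 18 among the 16989 tested genes by fitted log2 change is no measure of size, since every HET count was 0.

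Mageb4 and Mageb10-ps share much of their sequence. They have 1227 distinct 31-base words in common, of 1494 in Mageb10-ps and 2090 in Mageb4, and 17.9% of the Mageb10-ps words and 41.3% of the Mageb4 words occur in no other gene searched. The Mageb10-ps transcript is 1615 bases long in the annotation searched and 1407 in the deposited files, so these word counts and shares are approximate. The division of reads between the 2 genes is uncertain in part, so their sum is given as well. Together they stood at 24.25, 25.90 and 21.67 CPM in the KO libraries, against a HET mean of 0.0389 CPM (log2 change 9.19 ± 0.54, edgeR adjusted p = 3.41e-05; 13.25 without HET replicate 1, which held all 6 HET counts), and made up 84.1% ± 0.6 (SD, n = 3) of the 6 members' summed CPM. Their sum also passed the filter on low counts only through the KO libraries, so it had to differ to be tested. The promoter table's sequence around the Mageb4 start matched 2 places on the X chromosome of the older build NCBIM37. The printed Mageb4 promoter is therefore a sequence with a second copy. By its distance from the Mageb4 start, that copy falls at the higher-coordinate end of Mageb10-ps.

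Mageb16, on chrX:79623231-79671435, was the member of the 6 with counts in every HET library. It had 3.2, 9.4 and 7.4 estimated counts in HET and 101.8, 139.8 and 104.0 in KO. The corresponding levels were 0.0619, 0.160 and 0.163 CPM against 2.16, 2.70 and 2.04 CPM, and the groups did not overlap. The mean rose from 0.128 ± 0.0577 to 2.30 ± 0.348 CPM (SD, n = 3), a 17.9-fold ratio (log2 change 4.21 ± 0.42, edgeR adjusted p = 0.000146). Of its 31-base words, 72.8% occur in no other gene searched, and the rest are shared with the pseudogene Mageb16-ps1.

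The 3 Mage-A members were absent from the HET counts and low in KO. Magea4, on chrX:72221015-72222964, had 36, 17 and 36 counts in the KO libraries, or 0.764, 0.328 and 0.707 CPM, and was at least 10.2-fold higher than the HET limit (edgeR adjusted p = 0.00274). Magea10, on chrX:72381870-72386858, had 57, 24 and 31 counts, or 1.21, 0.463 and 0.609 CPM, and was at least 13.0-fold higher (adjusted p = 0.00221 in the same fit). Magea10 shares no 31-base word with another gene searched. KO replicate 2 was the lowest KO library for both genes, yet it lay above every HET library.

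Magea5, on chrX:155053061-155063151, varied most among the KO libraries. It had 12.1, 73.0 and 46.4 estimated counts, or 0.256, 1.41 and 0.911 CPM, a 5.50-fold range in which KO replicate 2 was the highest. It was at least 14.7-fold higher than the HET limit (edgeR adjusted p = 0.00728). Only 38.0% of its 31-base words occur in no other gene searched, with 737 shared with Magea8. The coefficient of variation over KO libraries was 67.3% for Magea5, 52.0% for Magea10 and 39.5% for Magea4, against 8.0% for Mageb4. The 10 Mage-A genes in the files summed to 4.284, 4.528 and 4.283 CPM in KO, a coefficient of variation of 3.23%, and to 0 in every HET library. This sum includes Magea10 and Magea4, which share no or few words with other genes (92.6% of the Magea4 words occur in no other gene searched). Both were lowest in KO replicate 2, where Magea5 was highest. Why the spread of the sum was small was not tested. Summing Magea1, Magea2, Magea3, Magea5, Magea6 and Magea8, which share most of their words, gave 2.184, 3.737 and 2.967 CPM in KO (2.96 ± 0.777, SD, n = 3). That was at least 50.6-fold above the HET limit (edgeR adjusted p = 4.9e-05). With no HET counts, this sum too passed the filter on low counts only through the KO libraries and had to differ to be tested.

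**Figure D2:**
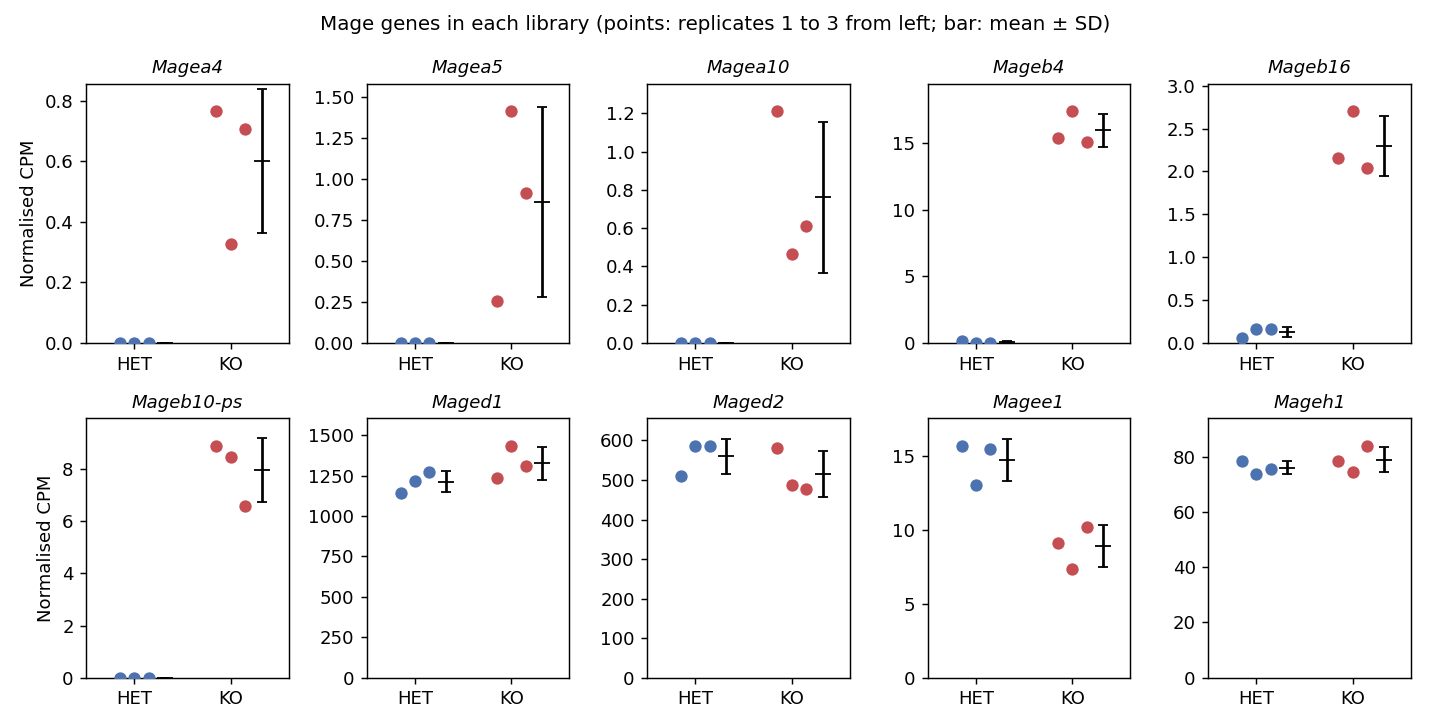
Normalised CPM of each member (linear axes that start at 0, scaled per gene) in the 3 HET (blue) and 3 KO (red) libraries, with the mean and SD beside each group. The 6 cancer-testis members lie at or near 0 in HET, Magee1 is lower in KO, and the HET and KO points of Maged1, Maged2 and Mageh1 overlap.

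Maged1, Maged2 and Mageh1 showed no called difference, and their HET and KO ranges overlapped. Maged1, an adaptor protein of neurotrophin receptor signalling on chrX:94535474-94542025, was at 1144.1, 1216.9 and 1273.4 CPM in HET and at 1234.2, 1431.8 and 1308.2 CPM in KO (log2 change 0.13 ± 0.09, edgeR adjusted p = 0.425). The sign of this small difference turned under library-total scaling and on the TPM scale. Its mean TPM was 525.6 ± 12.2 in HET and 524.3 ± 16.0 in KO (SD, n = 3).

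Maged2, which supports salt transporters of the kidney tubule, lies on chrX:150806421-150814362. It was at 509.1, 585.2 and 585.6 CPM in HET and at 581.4, 486.4 and 476.5 CPM in KO (log2 change -0.12 ± 0.10, edgeR adjusted p = 0.509). KO replicate 1 stood with the HET libraries and the other KO libraries were below them. Mageh1, on chrX:153036166-153037563, was at 78.6, 73.9 and 75.5 CPM in HET and at 78.5, 74.5 and 83.8 CPM in KO (log2 change 0.05 ± 0.08, edgeR adjusted p = 0.724), a sign that also turned under library-total scaling and on the TPM scale. A p above the threshold does not show that these levels were equal.

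Magee1, a partner of the dystrophin-associated protein dystrobrevin, lies on chrX:105120378-105123961 and was the 1 member called lower in KO. It was at 15.7, 13.1 and 15.5 CPM in HET and at 9.12, 7.39 and 10.2 CPM in KO, with no overlap between the groups. The mean was 14.8 ± 1.44 CPM in HET and 8.89 ± 1.40 CPM in KO (SD, n = 3), a ratio of 0.601 (log2 change -0.73 ± 0.16, edgeR adjusted p = 0.0187). The call was lost without HET replicate 1 (adjusted p = 0.0588), without HET replicate 3 (0.0774), without KO replicate 2 (0.0911) and with sex as a covariate (0.0546), while the direction held in each.

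**Figure D3:**
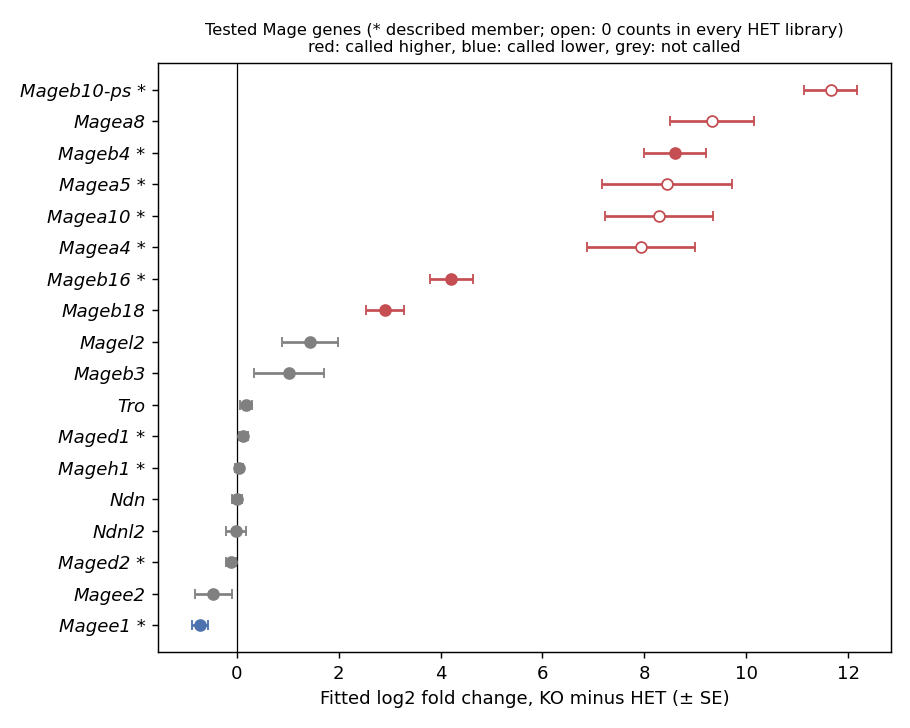
Fitted log2 fold change, KO minus HET, with its standard error, for the 18 tested Mage genes and relatives. Open points had no HET counts, so their fitted values are no measure of size. The A and B genes called higher lie at 2.91 or above, and Magee1, at -0.73, is the gene called lower.

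Per length, the order of the members changed between the groups. In HET the TPM means ran from Maged1 (525.6) through Maged2 (339.5), Mageh1 (69.3) and Magee1 (4.95) to Mageb16 (0.0907), and Mageb4 (0.0208) overlapped with Mageb16. In KO, Mageb4 at 7.41 ± 0.411 TPM and Mageb10-ps at 6.69 ± 1.16 TPM overlapped with each other and both lay above Magee1 at 2.74 ± 0.491 TPM. Mageb16 followed at 1.52 ± 0.193 TPM, with no overlap with the next gene, and Magea4, Magea5 and Magea10, at 0.805, 0.670 and 0.485 TPM, overlapped with each other. The A and B genes together rose from 0.0593% ± 0.0334 to 2.30% ± 0.15 (SD, n = 3) of all Mage TPM. Maged1 held 55.9% ± 0.586 of it in HET and 58.1% ± 3.49 in KO.

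Of the 22 other annotated Mage genes and relatives in the files, 8 were tested, of which 2 were called higher and 0 lower by edgeR (0 lower also at an unadjusted p under 0.05 and by DESeq2). Among all tested genes, 4.92% were called higher and 1.92% lower. Magea8, which shares 737 of its 1616 words of 31 bases with Magea5, had no HET counts and stood at 1.09, 2.13 and 1.51 CPM in KO, at least 27.0-fold above the limit (edgeR adjusted p = 0.000261). As for Magea5, KO replicate 2 was the highest. Mageb18, a type I member, shares no 31-base word with another gene searched. It was at 0.292, 0.170 and 0.199 CPM in HET and at 1.95, 1.72 and 1.34 CPM in KO, a 7.58-fold ratio (log2 change 2.91 ± 0.38, edgeR adjusted p = 0.00101). Magea8 and Mageb18 both passed the filter on low counts only with the KO libraries. Mageb3, Magee2, Magel2, Ndn, Ndnl2 and Tro were not called. Ndn, the type II gene of necdin, was at 162.0 CPM in HET and 161.8 CPM in KO.

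**Figure D4:**
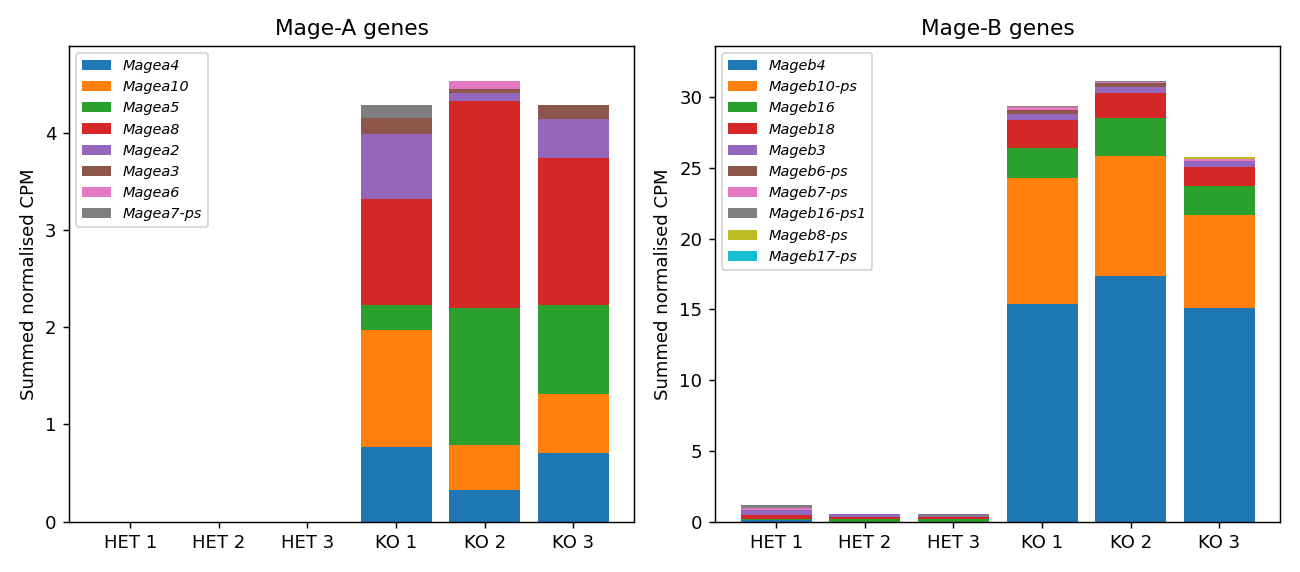
Normalised CPM in each library of the Mage-A genes (left) and the Mage-B genes (right), stacked by gene. Mage-A reached 4.28 to 4.53 CPM in KO with a varying division among genes, and Mage-B 25.7 to 31.2 CPM, mostly Mageb4 and Mageb10-ps.

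The Mage-A sum was at least 74.6-fold above the HET limit (edgeR adjusted p = 8.64e-06). With no HET counts it passed the filter on low counts only through the KO libraries. It had to differ to be tested, so this p-value gives no support of its own. The Mage-B sum, 0.758 ± 0.355 CPM in HET and 28.8 ± 2.76 CPM in KO, was 37.9-fold higher (edgeR adjusted p = 3.95e-06). The D, E and H genes summed to 1864.3 ± 104.3 and 1929.0 ± 64.4 CPM (log2 change 0.05 ± 0.08, adjusted p = 0.762, edgeR). All 6 calls of the cancer-testis members held without KO replicate 1, though all 6 passed the filter on low counts only through KO libraries. The other KO libraries also held raised marker sums of other cells, with endothelial sums of 81.2 and 39.7 CPM in KO replicates 2 and 3. In KO replicate 3, Emcn, Tek, Esam and Egfl7 lay above every HET library. There Pecam1, Cdh5, Tie1 and Flt1 lay within the HET range, and Kdr lay below it. The part of such other cells in the Mage values was not tested. The 8 germ cell markers summed to 9.11 to 13.4 CPM in HET and 249.4 to 323.0 CPM in KO, where most of the sum was Dazl. Of the 7 tested, 2 were called higher by edgeR, against 4.92% of all tested genes. Dazl, which binds RNA in germ cells, was at 0.139 CPM in HET and 268.2 CPM in KO. Ddx4, a germ cell helicase, was at 0.196 and 6.73 CPM. Dazl and Ddx4 passed the filter on low counts only with the KO libraries. Pou5f1, at 0.829 and 0.641 CPM, Nanos3, at 1.16 and 1.5 CPM, Kit, Sycp3 and Prdm1 were not called, and Dppa3 fell below the filter. The part of any germ cells in the Mage values was not tested either.

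At the transcript level, 1.59% of 50137 tested transcripts were called higher and 0.199% lower. Those called higher included the main transcripts of Magea4, Magea10, Mageb4, Mageb16 and Mageb10-ps. These too passed the filter on low counts only through the KO libraries, so they had to differ to be tested. None of the 7 tested Maged1 transcripts or the 9 tested Maged2 transcripts was called, and the 2 Magea5 transcripts fell below the filter. The Mageh1 transcript was not called, nor was that of Magee1 (log2 change -0.67 ± 0.16, edgeR adjusted p = 0.118).

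The nearest genes on either side of the members, leaving out Mage genes, numbered 17, of which 12 were tested. Of these, 0 were called higher and 0 lower by edgeR (at an unadjusted p under 0.05, 1 higher and 1 lower; by DESeq2, 0 higher and 1 lower). With 4.92% of all tested genes called higher and 1.92% lower, 0 calls among 12 genes is not unusual. Gabre, a GABA receptor subunit gene between Magea4 and Magea10, had a log2 change of 0.19 ± 0.29. Nr0b1, the orphan nuclear receptor gene beside Mageb4, had a log2 change of -0.46 ± 0.33 (adjusted p = 0.456, edgeR).

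The MAGE partner list holds RING ubiquitin ligases and other proteins that MAGE proteins bind. Of 21 genes listed, 19 were tested, with 0 called higher and 1 lower, a median log2 change of -0.00 against -0.003 over all genes (at an unadjusted p under 0.05, 2 higher and 4 lower; by DESeq2, 1 and 1). Few calls are usual for a list of this length, with 4.92% of all tested genes higher and 1.92% lower by edgeR. The one called was Rnf166, a RING ubiquitin ligase, at 11.3 CPM in HET and 7.59 CPM in KO (log2 change -0.57 ± 0.14, edgeR adjusted p = 0.0354). Bhlhe40, a transcriptional repressor, was at 25.0 and 44.6 CPM (log2 change 0.84 ± 0.22, edgeR adjusted p = 0.0736). Nsmce2, a SUMO ligase of the SMC5/6 complex, was at 107 and 92.1 CPM (log2 change -0.21 ± 0.08, edgeR adjusted p = 0.133).

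Of 19 tested cancer-testis genes of other families, 14 were called higher and 0 lower by edgeR (by DESeq2 also 14 and 0; at an unadjusted p under 0.05, 15 and 0). The edgeR shares over all tested genes were 4.92% higher and 1.92% lower. Their median log2 change was 4.95, or 3.71 with genes absent from HET placed at their lower bound, and that of the 6 Mage members was 8.36, or 4.04 with such bounds. The fitted medians include genes with no HET counts, and all 6 members passed the filter only through the KO libraries. The medians therefore do not rank the lists by size of change. The list was chosen with earlier results of these data known. Of the 14 called higher, 9 passed the filter on low counts only through the KO libraries and so had to differ to be tested. Of the 10 genes that passed it in the HET libraries alone, 5 were called higher. Rhox2a, a reproductive homeobox gene, was at 0.00851 CPM in HET and 29.0 CPM in KO, and Xlr3a, an X-linked lymphocyte-regulated gene, at 2.95 and 37.4 CPM. Nxf3, of the RNA export factor family, was at 0.00567 and 15.1 CPM. Tdrd1, Spo11, Spa17, Brdt and Tktl1 were not called.

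By root mean square distance of log2(CPM + 1) over the 6 libraries, the genes most like the summed cancer-testis members were 8030474K03Rik (0.130), Gm13119 (0.152) and Rhox2a (0.157). Those most like Maged1 were Rps7 (0.040), Ywhaz (0.053) and Hspa5 (0.121).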

How the data were processed

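The deposited files hold, per transcript and library, kallisto estimated counts, effective lengths and TPM, per the file headers. The authors' reference build is mm10, per the submitters' processing notes; no source used here gives the kallisto version or the annotation release. Of the 96626 transcripts in each file, 74519 were paired by identifier with 26567 genes of GENCODE vM1, and 92.4% to 92.82% of a library's estimated counts went with them. Gene values are sums of the estimated counts of a gene's transcripts, rounded, and TPM, as deposited, was summed per gene. The test was edgeR 4.0.16 (TMM scaling, filterByExpr, robust quasi-likelihood fit of KO against HET) with Benjamini-Hochberg adjustment over 16989 genes and a threshold of 0.05, tested on simulated data. DESeq2 1.42.0 and limma 3.58.1 (R 4.3.3), other scalings and filters, a length offset, sex as a covariate, a replicate block and leaving out each library were alternatives. A gene at 0 in every HET library was compared with 3 counts per library; its fitted log2 change is no measure of size. Coordinates and promoters are from RefSeq on GRCm38.p6. Words of 31 bases from the X-linked Mage transcripts of GENCODE vM1 were searched in each other and in its protein-coding transcripts. Other non-coding transcripts were not searched. Some of the Mage transcripts, Mageb10-ps among them, differ in length from the deposited transcripts. Named genes are the members, their relatives, the 3 genes of each list with the smallest p, the nearest neighbours and the 3 genes most alike; cancer-testis genes not called were named after their values were seen. The members and lists were chosen with earlier results of these data known.

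Library pairs of a group differed by more than sampling noise (chi-square per degree of freedom 13.65 to 41.51 within groups). The numbers of HET and KO replicates share no stated source, and deviations of same-numbered libraries from their group means correlated at -0.0714, -0.0452 and -0.0347, so the numbers were not used as pairs.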

Additional observations from a re-analysis of the deposited data

How the results depend on the processing

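All 6 cancer-testis members stayed higher under every alternative that kept them above its filter, with 2 losing the adjusted threshold under limma on log2(TPM + 1): Magea5 (0.71, adjusted p = 0.10) and Magea10 (0.55, adjusted p = 0.0680). With mean TPM of at least 1 only 2 members, and 2 Mage genes in all, were called higher, since Magea4, Magea5, Magea10 and Mageb16 fell below that filter. Leaving out 1 library at a time left 6 members and 8 to 9 Mage genes called higher, and 0 to 1 lower. Since all 6 members passed the main filter on low counts only through the KO libraries, their staying called gives no support of its own. Magee1, the 1 member called lower, gave -0.67 under limma on log2(TPM + 1), -0.84 on log2(TPM + 0.1), -0.76 with sex as a covariate and -0.67 for its leading transcript, where it was no longer called (0 members and 0 Mage genes lower in the first 3), and -0.84 to -0.60 without single libraries. Small differences changed sign: Maged1 to -0.04 under library totals and -0.004 on the 3 TPM settings, Mageh1 to -0.11 and -0.07, and the D, E and H sum to -0.11 under library totals. The median over all genes was -0.166 under library totals and -0.126 with the TPM filter, so these signs are relative to that shift. Genes called higher numbered 1339 by DESeq2, 543 on log2(TPM + 1), 442 with the TPM filter and 526 to 916 without single libraries. Genes called lower numbered 1883 under library totals, 583 by DESeq2, 660 with the TPM filter, 162 with sex as a covariate and 116 to 272 without single libraries. The cause was not tested. With the replicate number as a block, although the numbers do not pair the libraries, 707 genes were higher and 265 lower, and the members' calls remained 6 higher and 1 lower. Depth limits the Mage-A genes most, whose KO libraries hold 12.1 to 73.0 counts a member. The sums over genes that share words were added after seeing the data.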

Other observations

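The division of Mageb4 reads between its 2 annotated transcripts differed among the KO libraries. Mageb4-001 held 27.8% of the gene's estimated counts in KO replicate 1, 90.1% in KO replicate 2 and 93.9% in KO replicate 3. The transcripts share 2088 of 2090 words of 31 bases, so reads of the 2 transcripts can hardly be told apart.

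Of the 14 Mage relatives below the filter, 5 (Magea1, Magea9-ps, Mageb1, Mageb2 and Mageb5) were at 0 in all 6 libraries. Magea2, at 31.3, 4.2 and 20.6 counts, and Magea3, at 8.0, 2.1 and 7.1 counts, had counts in every KO library and in no HET library. Mageb16-ps1 had 8.8, 2.0 and 7.0 counts in HET and 4.0, 2.0 and 0 in KO, and the groups overlapped. It shares 521 of its 1097 words of 31 bases with Mageb16, so the division of reads between them is uncertain.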
